A study of Drosophila melanogaster with 2 samples.

Results

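Divergent promoters are stretches of sequence from which 2 neighbouring genes are read away from each other on opposite strands. The peaks described here are 406 of 1205 GATAd peaks (33.7%). Their summit lay within 1 kb of annotated transcription starts of at least 2 different protein-coding genes on opposite strands. A summit is the base that the authors' list gives as the top of a peak. The 406 were chosen from the authors' dm6 IDR list (irreproducible discovery rate, a comparison of peak ranks between replicates). The rule used summit positions and no signal value. The chosen peaks made up 48.3% of the 841 peaks within 1 kb of any protein-coding start. The other 435 of these had starts on only 1 strand nearby and are called one-direction peaks, and 364 peaks were over 1 kb from a start.

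Chromatin immunoprecipitation with sequencing was carried out on whole wandering Drosophila melanogaster larvae of the third instar, males and females pooled, of unknown age. There was 1 group, strain GATAd-GFP, a line that stably carries a transgene for GATAd tagged at the C terminus with green fluorescent protein. The antibody was directed against the tag, although another label names GATAd as its target. The 2 libraries are biological replicates 2 and 3. Both share the transgene, no untagged larvae were analysed here, and signal that does not depend on the tagged protein cannot be told apart from binding. Chromatin came from the whole animal, so the cell types behind a peak are mixed. Read depth is unknown.

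GATA factors are zinc finger proteins that bind DNA at WGATAR, where W stands for A or T and R for A or G. GATAd is one of the GATA family members of the fly. In the compact fly genome many housekeeping genes sit head to head with a neighbour, so a factor bound in the gap lies upstream of both. A second word common at such promoters is the DNA replication-related element (DRE), which is bound by the factor DREF.

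Windows around 11 summits show the sequence at these peaks. Capitals mark WGATAR (the word AGATAA, the word AGATAG, the word TGATAA or the word TGATAG, read on either strand), DRE (TATCGATA, its own reverse complement) and CTACGCC or its reverse complement GGCGTAG, a word picked from these same peaks after their sequences were seen. Each is on the plus strand of dm6, from the Release 6 reference sequence, and ends before any annotated untranslated region. The first set holds 5 of the highest peaks whose windows left enough such sequence. They are shown as examples of strong peaks, and no share of peaks with a word can be read from them. Of the 15 highest divergent peaks, 6 held WGATAR within 100 bp of the summit. The 5 windows of the first set lie at chrX:2703853-2703998, chr3L:5139396-5139589, chr3R:15229437-15229637, chr2L:13835338-13835538 and chr3L:9457699-9457899. Pairs are named with the minus-strand gene first.
Ugalt/eIF2Bbeta: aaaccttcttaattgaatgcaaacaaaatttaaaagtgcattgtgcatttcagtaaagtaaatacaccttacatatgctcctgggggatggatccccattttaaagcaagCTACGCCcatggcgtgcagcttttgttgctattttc
Tcs5/CHMP2B: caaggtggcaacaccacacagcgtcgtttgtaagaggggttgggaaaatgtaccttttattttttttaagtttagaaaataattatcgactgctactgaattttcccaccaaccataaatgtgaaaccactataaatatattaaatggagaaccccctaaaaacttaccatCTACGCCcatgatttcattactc
Art3/mRpS10: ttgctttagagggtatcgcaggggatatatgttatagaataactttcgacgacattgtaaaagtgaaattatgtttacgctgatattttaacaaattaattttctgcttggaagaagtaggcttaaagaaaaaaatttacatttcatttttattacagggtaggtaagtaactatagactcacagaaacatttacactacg
mRpS23/CenG1A: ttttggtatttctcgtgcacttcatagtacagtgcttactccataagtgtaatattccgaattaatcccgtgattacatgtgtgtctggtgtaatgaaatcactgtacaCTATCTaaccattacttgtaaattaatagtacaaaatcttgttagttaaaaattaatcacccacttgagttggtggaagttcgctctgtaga
CG3437/CG3552: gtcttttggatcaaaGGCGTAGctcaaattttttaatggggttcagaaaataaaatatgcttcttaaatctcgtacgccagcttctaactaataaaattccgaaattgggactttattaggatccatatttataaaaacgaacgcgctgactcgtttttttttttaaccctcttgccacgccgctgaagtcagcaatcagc

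The remaining windows were chosen to show the words themselves. CG5611/Mtl (chr3R:27636127-27636327) and CG7601/CIA30 (chr3R:29736779-29736964) hold WGATAR, Atat/Shc (chr3L:9426794-9426994) and fws/Lamtor3 (chr2L:17481057-17481230) hold both words, and CG32590/Flo2 (chrX:14839107-14839305) and dsd/Tusp (chr3R:27607397-27607516) hold DRE alone.
CG5611/Mtl: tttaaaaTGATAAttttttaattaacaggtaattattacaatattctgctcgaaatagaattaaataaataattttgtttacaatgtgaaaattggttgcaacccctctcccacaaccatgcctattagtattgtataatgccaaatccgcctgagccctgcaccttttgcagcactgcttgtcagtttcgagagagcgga
CG7601/CIA30: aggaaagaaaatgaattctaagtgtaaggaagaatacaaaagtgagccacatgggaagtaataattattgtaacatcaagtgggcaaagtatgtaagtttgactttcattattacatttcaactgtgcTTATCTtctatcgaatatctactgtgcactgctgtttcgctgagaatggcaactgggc
Atat/Shc: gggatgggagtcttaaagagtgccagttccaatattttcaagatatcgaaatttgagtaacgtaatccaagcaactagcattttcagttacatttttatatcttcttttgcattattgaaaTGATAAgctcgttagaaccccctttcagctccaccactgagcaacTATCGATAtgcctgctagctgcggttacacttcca
fws/Lamtor3: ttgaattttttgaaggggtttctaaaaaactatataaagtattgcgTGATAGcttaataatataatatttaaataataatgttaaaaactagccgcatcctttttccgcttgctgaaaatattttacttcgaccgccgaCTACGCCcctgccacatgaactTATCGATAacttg
CG32590/Flo2: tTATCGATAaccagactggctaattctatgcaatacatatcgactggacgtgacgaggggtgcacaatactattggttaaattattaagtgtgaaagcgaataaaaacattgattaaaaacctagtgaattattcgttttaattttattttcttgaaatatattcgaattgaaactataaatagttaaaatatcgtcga
dsd/Tusp: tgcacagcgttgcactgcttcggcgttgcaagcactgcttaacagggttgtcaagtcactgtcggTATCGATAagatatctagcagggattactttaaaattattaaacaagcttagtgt

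Divergent promoters took a larger share of the listed peaks than of the weaker candidates. Of the 28795 pooled candidates outside the list, 1022 met the same rule, which is 3.55%, against the 406 of 1205 inside it. Among promoter peaks alone the share was 48.3% inside the list and 15.5% outside it. Sequence within 1 kb of starts on both strands made up 16.4% of all promoter sequence and 3.33% of the chromosome arms. The IDR peaks were exactly the 1205 strongest of the 30000 pooled candidates, so the comparison is one of strong with weak peaks. No test was made, because peaks of the same libraries are not replicates.

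The share held by divergent promoters was highest among the strongest candidates. It was 39.4% at ranks 1 to 302 by pooled signal, 40.2% at ranks 303 to 603, 27.9% at ranks 905 to 1205, 17.8% at ranks 1206 to 2410 and 2.14% at ranks 19281 to 30000. The share of one-direction promoters was 35.1% in the first of these bins and 16.8% in the last. Each replicate's own list likewise had more divergent promoters among its strongest candidates. Of the 1205 strongest candidates of replicate 2, 357 (29.6%) were divergent, against 3.22% of its others, and in replicate 3 the values were 464 (38.5%) and 5.35%.

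**Figure D1:**
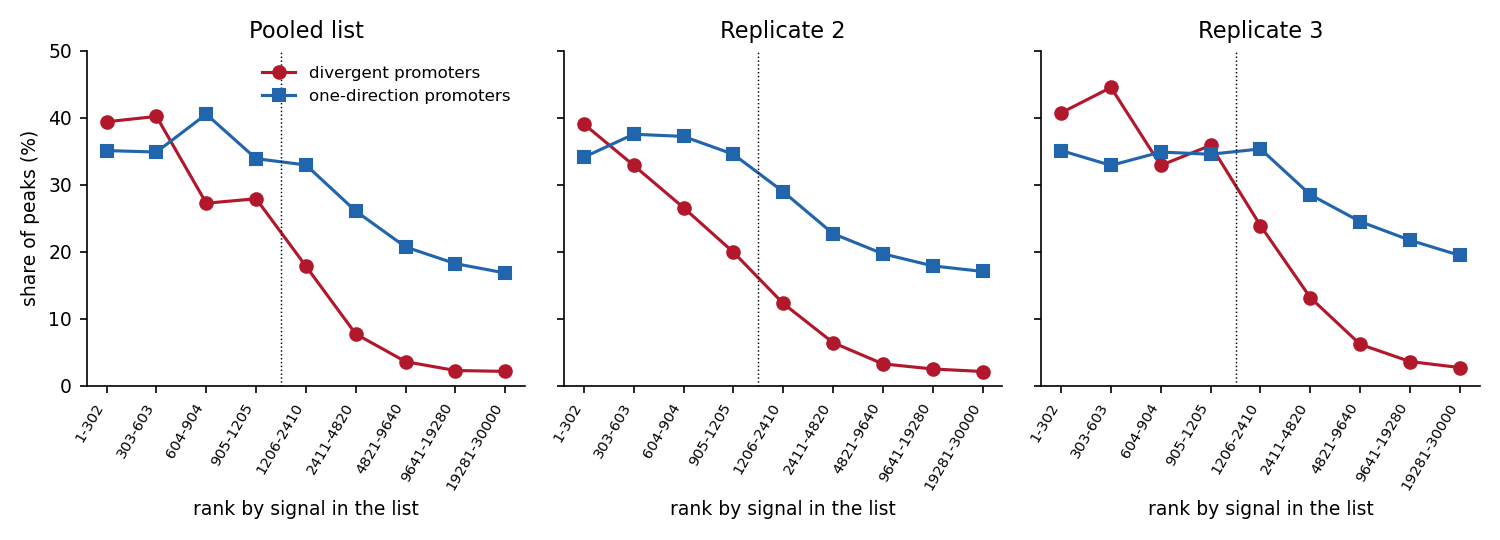
Share of peaks (y axis, percent) at divergent and at one-direction promoters by rank of signal (x axis, strongest left) in the pooled list and in each replicate. The dotted line marks rank 1205, and in each of the 3 lists the highest divergent share was left of it, at ranks 303 to 603 in the pooled list (40.2%).

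Counted by gene, 1225 of 13945 protein-coding genes (8.78%) had an IDR summit within 1 kb of a start. Of 6484 genes with an opposite start of another gene within 2 kb, 906 (14.0%) had one, against 319 of 7461 genes (4.28%) without such a neighbour. For head-to-head genes the share was 18.8% of 3809 with starts under 500 bp apart, 14.0% of 1904 at 500 to under 1000 bp and 9.03% of 2281 at 1000 to 2000 bp. A peak in a short gap counts for both of its genes, which raises these shares. A gene counts in each class that any of its start pairs falls in, and its summit may lie near another of its starts. Counted by gene pair instead, 159 of 1023 head-to-head pairs (15.5%) with starts under 250 bp apart had a divergent peak, as had 171 of 969 (17.6%) at 250 to 499 bp and 54 of 675 (8.0%) at 500 to 1000 bp. The spacing of a pair in these counts is not always that between the starts nearest a summit, which was under 250 bp at 140 peaks. The 406 peaks fell on 391 gene pairs, made of 782 genes.

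Most of the pairs were head to head with a short gap. In 397 of the 406 the paired starts faced away from each other, and in 9 the transcripts overlapped at their starts. The distance between the paired starts had a median of 290 bp (quartiles 220 and 405 bp, range 2 to 1382 bp). The divergent candidates outside the list had a median spacing of 392.5 bp (n = 980), and all 3499 head-to-head pairs of the annotation with starts under 2 kb apart had 408 bp. Starts under 500 bp apart were found at 328 of 397 listed peaks (82.6%) and at 604 of 980 candidates outside (61.6%). The rule caps the spacing at 2 kb at listed peaks and at candidates, but does not set the difference between these. Less sequence meets the rule at a wider gap, so the 408 bp of the annotation is not a like background.

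The summit lay between the paired starts at 324 of 397 head-to-head peaks (81.6%), against 638 of 980 divergent candidates outside the list (65.1%). Within the gap summits were spread about evenly toward the minus-strand and the plus-strand start. Their place, from the minus-strand start at 0% to the plus-strand start at 100%, had quartiles of 26.3%, 50.1% and 72.7%, and 116 of 324 summits (35.8%) fell in the middle one of 3 equal stretches. Over all 406 peaks the nearer start was the minus-strand one at 206 and the plus-strand one at 199. A balance between strands does not show that single summits lay midway. At the 63 head-to-head peaks with starts 500 to 999 bp apart, the nearer start was a median of 120 bp away and the farther one 537 bp. Of the 73 summits outside the gap, 60 lay in an annotated 5' UTR, and the median distance past the start was 60 bp.

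**Figure D2:**
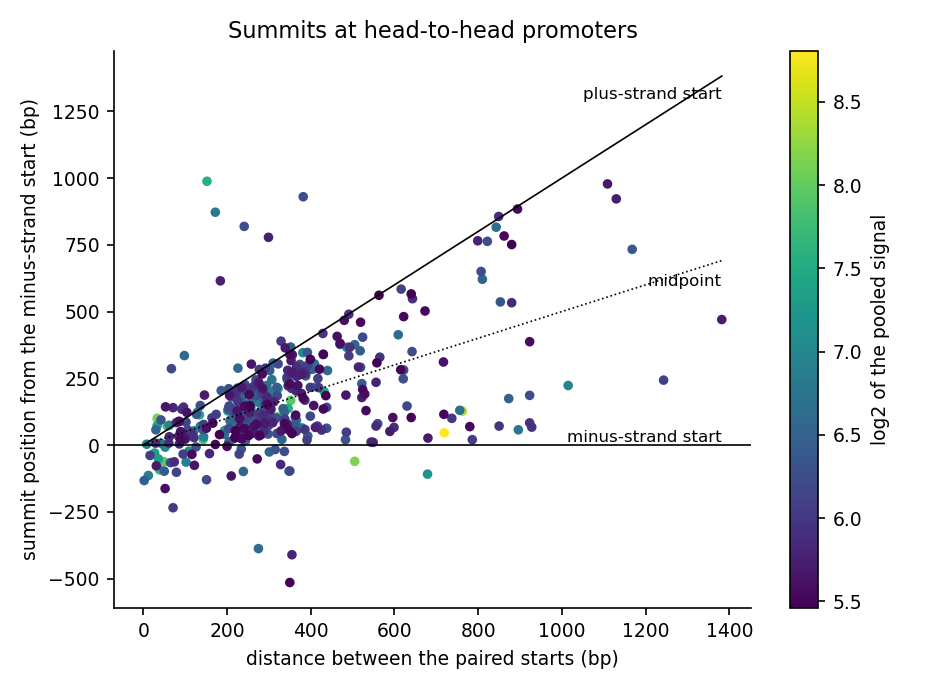
Summit position relative to the minus-strand start (y axis, bp) against the distance between the paired starts (x axis, bp) for the 397 head-to-head peaks, coloured by log2 of the pooled signal. Points between the solid lines are the 324 summits inside the gap, spread on both sides of its midpoint (dotted).

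Summits were close to both starts. The nearer start was a median of 80.5 bp away and the farther one 218.5 bp, against 111.5 bp and 408 bp at the candidates outside the list. Both starts were within 250 bp at 229 of 406 listed peaks (56.4%) and at 274 of 1022 candidates (26.8%). By annotation 270 summits were intergenic, 81 in a 5' UTR, 54 in an intron and 1 in a coding exon. The median signal was 76.6 at the 140 peaks with starts under 250 bp apart, 71.3 at the 188 with 250 to 499 bp, 61.0 at the 63 with 500 to under 1000 bp and 60.8 at the 6 with 1000 bp or more. The summit was inside the gap at 62.1%, 91.0%, 95.2% and 100% of these, in the same order of spacing. A wider gap leaves more room for a summit, so this last order follows in part from the spacing itself.

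Signal is the authors' value per peak, used here to describe and rank peaks within a list. Its median was 71.7 at the divergent peaks (quartiles 54.7 and 93.5, range 44.1 to 447.6), 64.2 at one-direction peaks and 61.5 at peaks over 1 kb from a start. The quartiles overlap widely. Among the 602 strongest peaks the medians were 88.1 at divergent and 88.4 at one-direction peaks, so the order of these classes turned there. Of the divergent peaks 240 (59.1%) were among the 602 strongest peaks of the list, against 48.3% of one-direction peaks and 41.8% of the distant ones. In replicate 2 the medians were 36.8, 35.2 and 33.5 in the same order of classes, and in replicate 3 they were 35.1, 31.2 and 28.6.

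The highest divergent peak lay between Ugalt, a UDP-galactose transporter gene, and eIF2Bbeta, which encodes a subunit of the exchange factor for the initiation factor eIF2. Its signal was 448 in the pooled list, 274 in replicate 2 and 189 in replicate 3, where it ranked 3rd and 4th. The summit was 46 bp from the Ugalt start and 673 bp from the eIF2Bbeta start, which put it at 6.40% of a 719 bp gap. The second, at Tcs5 (a kinase that takes part in tRNA modification) and CHMP2B (a subunit of the ESCRT-III membrane-scission complex), had 371, with 191 in replicate 2 and 180 in replicate 3. Here the summit lay 94 bp and 130 bp from the starts.

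At mRpL41, a mitochondrial ribosomal protein gene, and CG8079 the signal was 344 (185 in replicate 2 and 162 in replicate 3). At Art3, an arginine methyltransferase gene, and mRpS10 it was 331 (176 and 154), with the summit 0.5 bp from the midpoint of a 257 bp gap. The peak at mRpS23 and CenG1A had 259 (138 in replicate 2 and 123 in replicate 3) and lay nearer to CenG1A, at 126 bp. The peak at mRpL23 and CG9004 had 249 (121 and 125), with its summit in a 5' UTR outside a gap of 50 bp. PNPase, which encodes the mitochondrial polynucleotide phosphorylase, and Gprk2, a G protein-coupled receptor kinase gene, shared a peak of 289 (174 in replicate 2 and 111 in replicate 3), 61 bp inside PNPase. Nearness to the start of a pair does not tell which gene, if either, a bound factor acts on.

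The other 8 of the highest 15 ran from 279 to 198. Pex11ab, a peroxisome division gene, and CG8320 had 279 in an intron beyond a 33 bp gap. Chro, which encodes Chromator, and Ssl1, which encodes a TFIIH subunit, had 275. CG3437 and CG3552 had 247, and CG5611 and Mtl had 243. CG8372 and CG8360 had 227, Mnat9 and CG1792 had 227, and CG11309 and CG7632 had 198. The tubulin acetyltransferase gene Atat and the signalling adaptor gene Shc also had 198. The replicate lists need not share a scale. Relative to the median ratio of replicate 3 to replicate 2 over all IDR peaks, 7 of the 15 were higher in replicate 3 and 8 in replicate 2. CG5611/Mtl was furthest toward replicate 3, with 96.0 in replicate 2 and 154 in replicate 3.

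**Figure D3:**
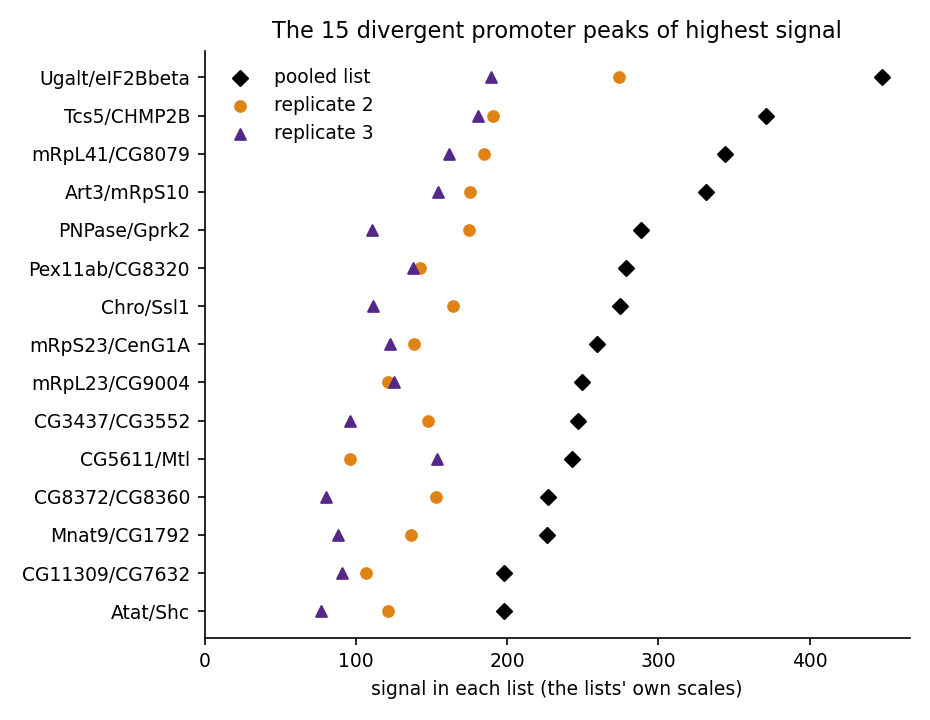
Signal (x axis, each list's own scale) of the 15 highest divergent peaks in the pooled list, replicate 2 and replicate 3, 1 gene pair per row. Ugalt/eIF2Bbeta was highest in all 3 lists, and CG5611/Mtl was the pair most shifted to replicate 3.

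The weakest divergent peaks lay at the end of the IDR list. Among them CG31955/CG2818 and RpL41/NaCP60E both had 44.1, against 448 at the highest peak. Their starts were 255 bp and 182 bp apart. RpL41 encodes a cytoplasmic ribosomal protein.

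Agreement between the replicates was read from how many peaks shared 1 bp or more with any of the 1205 strongest candidates of each. Of the divergent peaks 252 (62.1%) did so in both replicates, against 54.4% of all IDR peaks, 52.4% of one-direction peaks and 48.1% of those over 1 kb away. The classes differed in replicate 3, where the shares were 81.0% of divergent, 69.4% of one-direction and 64.3% of distant peaks, and hardly in replicate 2, where they were 77.3%, 77.5% and 76.4%. At 15 divergent peaks neither replicate had such a candidate. The share in both replicates depends on signal, and was 88.8% at the divergent peaks among the 602 strongest of the list. Divergent peaks were more often among these 602, at 59.1%, against 48.3% of one-direction and 41.8% of distant peaks. The classes were not compared at equal signal, so these shares do not show that divergent peaks of a given strength agreed better. At divergent peaks the median log2 ratio of replicate 3 over replicate 2 was -0.12 (SD 0.70 over 387 peaks), against -0.19 at one-direction peaks, -0.29 at peaks over 1 kb away and -0.20 (SD 0.75) over all IDR peaks. Above that last value lay 55.6% of divergent, 50.5% of one-direction and 43.4% of distant peaks. With 1 library per replicate these differences have no error and were not tested.

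**Figure D4:**
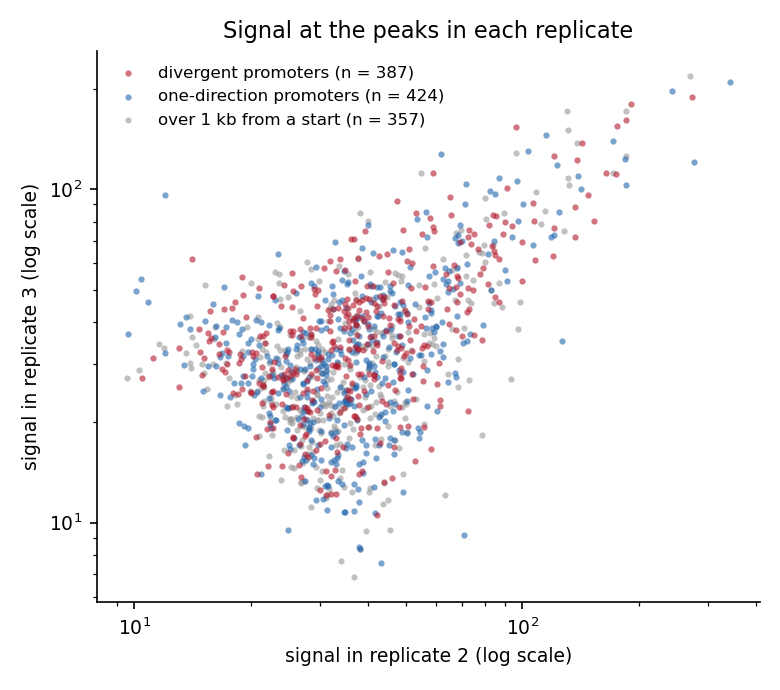
Signal in replicate 3 (y axis, log scale) against replicate 2 (x axis, log scale) for the IDR peaks with a candidate in both, coloured by class. The 387 divergent peaks overlap both other classes through most of the range.

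Single pairs departed from the median ratio on both sides. Relative to that median, the 4 highest log2 ratios of replicate 3 to replicate 2 were 2.33 at CG13097/PIG-U, 1.72 at CG12099/Pex10, 1.68 at Sf3a2/CG42588 and 1.66 at gfzf/Sas-4. This gfzf/Sas-4 peak, the weaker one at its pair, shared its replicate 3 candidate with the stronger one, whose ratio was 0.51. PIG-U encodes a subunit of the GPI transamidase and Pex10 a peroxisome assembly factor. CG13097/PIG-U had 14.1 in replicate 2 and 61.7 in replicate 3, and no pair had a second library in either replicate to give it an error. The 4 lowest were -1.80 at CG17816/ArgRS-m, -1.61 at Miro/spas, -1.59 at yem/Ctl2 and -1.57 at CG3744/CG11089. Miro, a mitochondrial transport GTPase gene, and spas, which encodes the microtubule-severing protein spastin, had 58.0 in replicate 2 and 16.6 in replicate 3. Some of these ratios rest on weak candidates. Sf3a2/CG42588 had 11.2 in replicate 2, at rank 19901, and CG17816/ArgRS-m had 10.6 in replicate 3, at rank 9011. The weakest candidate of each list had 9.56 in replicate 2 and 6.42 in replicate 3.

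Some peaks were matched in 1 replicate only. No candidate of replicate 2 overlapped 17 divergent peaks, out of 29 such peaks in the whole IDR list, although 15 of the 17 were among the strongest 1205 of replicate 3. The strongest was Ripalpha/RpL7, with 94.3 in the pooled list and 47.1 in replicate 3. It was followed by eIF4EHP/CG18428 with 88.9 in the pooled list and 63.5 in replicate 3. The 2 peaks without a candidate in replicate 3 were cag/CG12942 and oxt/CG13807. These pairs were named after their values were seen.

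Spacing reached from near contact to over 1 kb. The smallest was 2 bp at dpa, which encodes the replication helicase subunit Mcm4, and didum, a myosin V gene, where the signal was 87.7 and the summit lay 133 bp inside dpa. SerRS, the seryl-tRNA synthetase gene, and CG17260 were 8 bp apart, with a summit inside the gap and a signal of 126. CG43345 and mAcon1 (mitochondrial aconitase) overlapped by 11 bp. The widest gaps were 1382 bp at CG31807/grp, 1243 bp at CG31635/Tango1 and 1168 bp at Setd3/CG4586, with signals of 53.1, 68.4 and 83.2.

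Close to the 1 kb limit, the farther start lay 1000 bp from the summit at CG31635/Tango1, 988 bp at Dpit47/Adf1 and 978 bp at ced-6/Camta. Of these Dpit47/Adf1 was strong, with 188. Just past it were SoYb/Ndf at 1011 bp, Spred/BEAF-32 at 1019 bp and mv/SCOT at 1019 bp, with 45.0, 52.2 and 49.8.

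At 14 pairs there was more than 1 divergent peak, 29 peaks in all, and 24 divergent peaks overlapped another. Elp6/Dic1 had 3, of 74.3, 58.9 and 46.8, and the one of 58.9 lay at other starts of the same genes. At CG5611/Mtl the peaks had 243 and 86.0, and at RpL34b/CG8132 138 and 74.3. At Charon/CG4887 the peaks had 119 and 78.2. Both peaks of a pair took their replicate 2 value from the same candidate at Charon/CG4887 and Taf2/CalpB, and their replicate 3 value at Taf2/CalpB, gfzf/Sas-4, Ns2/POSH and CG13698/mRpS26, so 4 and 8 peaks carry a shared value. The other 10 were CG13698/mRpS26, CG32590/Flo2, CG4860/Rsbp15, Ns2/POSH, PIG-L/psidin, Septin2/Srp72, Taf2/CalpB, Xe7/Atg17, gfzf/Sas-4 and phr6-4/CG2608. At CG32590/Flo2, Taf2/CalpB and phr6-4/CG2608 the peaks were paired with different starts of Flo2, CalpB and phr6-4. Overlapping peaks are not separate measurements.

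Gene lists of basic cell functions were counted at the divergent peaks, without a test. Against 782 of all 13945 protein-coding genes (5.6%), they included 12 of 73 mitochondrial ribosomal protein genes (16.4%), 18 of 93 cytoplasmic ones (19.4%) and 6 of 33 aminoacyl-tRNA synthetase genes (18.2%). They also included 6 of 40 Mediator and TFIID genes, 8 of 90 oxidative phosphorylation genes (8.9%), 3 of 33 vacuolar ATPase genes and 3 of 31 RNA polymerase genes. Proteasome subunits had 2 of 48, translation factors 2 of 61, mitochondrial import 0 of 15 and cuticle proteins 0 of 122. The lists differ in how many genes could qualify. An opposite start within 2 kb was found for 61 of the 73 mitochondrial ribosomal protein genes and for 36 of the 122 cuticle protein genes, against 6484 of all 13945 genes. It was found for 61 of the 93 cytoplasmic ribosomal protein, 25 of the 33 aminoacyl-tRNA synthetase and 54 of the 90 oxidative phosphorylation genes. Only genes with such a start can qualify, and of the 6484 the 782 at a divergent peak were 12.1%. The 5.6% is therefore a low background for lists rich in such starts. At 7 of 13 peaks of mitochondrial ribosomal protein genes, and at 11 of 19 of cytoplasmic ones, the listed gene had the start nearest the summit.

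The share of divergent peaks with the GATA word was close to that of all promoters of this layout. WGATAR lay within 100 bp of 153 of 406 summits (37.7%, Wilson 95% interval 33.1 to 42.5%), against 43.9% of one-direction peaks, 42.0% of peaks over 1 kb away and 35.9% of divergent candidates outside the list. Windows of the same length on the midpoints of all 3499 head-to-head pairs had it in 35.2% (33.6 to 36.8%). Of its 205 occurrences, 105 were within 50 bp of the summit and 104 were on the plus strand. Intervals cover the counting of peaks only. A match is no evidence of a bound site, and its lack says only that these letters are not in the window.

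DRE was found at 42 divergent peaks (10.3%, 7.74 to 13.7%), 5.98% of one-direction peaks and 0.549% of distant peaks. It was present in 8.32% of divergent candidates outside the list, whose interval of 6.78 to 10.2% overlaps that of the divergent peaks. The midpoints, which are not centred on summits, had it in 6.74%, and their interval of 5.96 to 7.62% lies just below that of the divergent peaks. One-direction candidates outside the list had it in 1.45%, so the listed peaks stood further above their weaker candidates in the one-direction class. Both words stood at 14 peaks and neither at 225 (55.4%), and at 0 peaks did they share letters. Median GC content was 34.8% at divergent peaks, 37.3% at one-direction peaks and 34.8% at the midpoints.

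**Figure D5:**
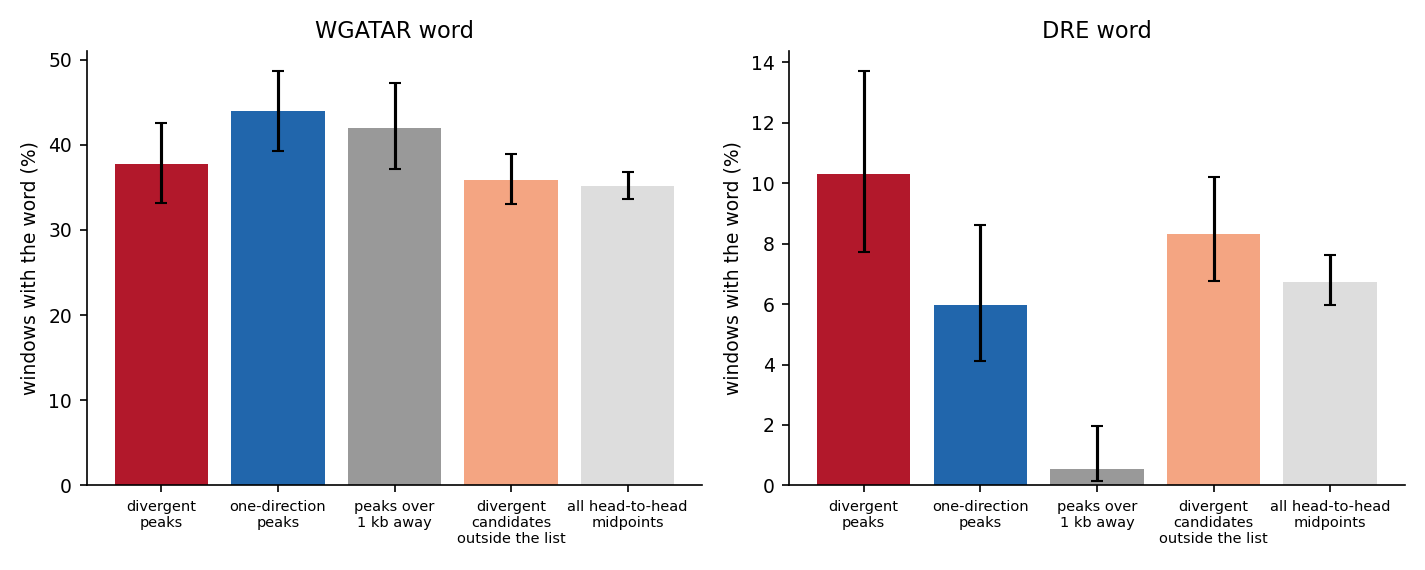
Share of windows (y axis, percent) with WGATAR (left) and DRE (right) within 100 bp of the summit or midpoint, by class; bars start at 0 and lines are Wilson 95% intervals for the counting of windows. Divergent peaks had WGATAR at 37.7%, close to the 35.2% of all head-to-head midpoints, and DRE at 10.3%.

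By chromosome arm, divergent peaks followed the sequence open to them less closely on some arms. They were 29.1% on 3R, which holds 24.8% of the sequence within 1 kb of starts on both strands, and 15.8% on 2R, which holds 20.5%. On X the share was 13.5%, against 15.5% of that sequence and 19.1% of all IDR peaks. No divergent peak lay on chromosome 4, which had 4 IDR peaks and holds 0.5% of that sequence.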

How the data were processed

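Per the file headers and deposited records, the authors made candidate lists of 30000 peaks for replicate 2, replicate 3 and both pooled, and an IDR list taken from them. The deposited signal is column 7 of each list, an enrichment whose scale is not stated, so values were described within a list, and ratios between the replicate lists were read relative to their median over all IDR peaks. Not given in the sources used here are the aligner, the caller of peaks, all versions and the cut for IDR. Control libraries and the dm3 lists were not used.

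Summits were placed against starts of 13945 protein-coding genes of Ensembl release 115 (BDGP6), on the sequence of dm6, with Python 3.11.15, pandas 2.3.3 and numpy 2.4.6. On each strand the gene with the start nearest the summit formed the pair. Replicate values came from the overlapping candidate (at least 1 bp). Placing and word search were tested on simulated data. No test over peaks was made. Shares have Wilson 95% intervals (scipy 1.17.1).

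Members and gene lists were chosen with earlier results of these data known. Pairs named are the 15 highest peaks, the 4 highest and 4 lowest replicate ratios, the 3 shortest and 3 longest spacings, the 3 on each side of the 1 kb limit, the 3 weakest and those with more than 1 peak. One of the weakest pairs is not reported here. Windows printed depart from the rule, which asked for the highest peaks only: those on 2R were left out as planned, those reaching into UTRs were shortened or passed over, and 6 were added for their words, after values were seen. Bins of rank and spacing, arms and the positions of candidates outside the list were also added then.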

Additional observations from a re-analysis of the deposited data

How the results depend on the processing

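Of 44 recomputed values, 26 stayed within the spread used for comparison and 18 moved. That spread was first taken over peaks, under which no signal or spacing value moved. For signal and spacing it was changed after this was seen to the stricter spread between the replicate lists (SD 1.84 for signal, 5.30 bp for spacing). Both SDs came from the single-replicate values, which are themselves among the values compared. For the log2 ratio the spread stayed an SD over peaks (0.695), under which none of its values moved. The tally thus depends on the spread chosen and does not measure how robust the results are. The number of divergent peaks was 240 among the 602 strongest peaks of the list, 229 with starts within 250 bp, and 357 to 464 in a single replicate's list. Median spacing was 277 bp with each gene's 5'-most start, 274 bp with the closest opposite starts, 276.5 bp both among these 602 and within 500 bp, 240 bp within 250 bp, and 282.5 to 290 bp without a replicate. Median signal was 88.1 among the 602 strongest (88.4 at one-direction peaks, which reverses their order), 76.1 within 250 bp, and 36.1 to 38.7 in a single replicate, whose list has its own scale. The share among the strongest of both replicates was 95.3% against all candidates, 88.8% among the 602 strongest and 67.2% within 250 bp. WGATAR was found in 61.1% with 200 bp and 21.7% with 50 bp on each side of the summit. Summits between the starts were 75.8% with each gene's 5'-most start. Narrower limits and the strongest peaks leave fewer peaks by construction, and wider windows hold more words. No paired analysis was possible because there is 1 group. Depth is unknown and limits every value to a description.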

Other observations

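A word was noticed in the printed sequences of the 2 highest divergent peaks, and a search over words followed. All words of 6, 7 and 8 letters were ranked by excess over the midpoints of all head-to-head pairs, in 4 sets of peaks, which made 12 rankings of 1924 to 23887 words each. The values below are the top words of those rankings, so their shares in the sets that chose them are inflated by the choice, and no test was made.

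CTACGCC, read on either strand, came first among 7-letter words at the 60 highest divergent peaks, with 11 of 60 (18.3%), against 0.915% of the midpoints. At the other 346 divergent peaks, which did not choose it, it was found at 7 (2.02%). It was found at 2.07% of one-direction peaks, 0.549% of peaks over 1 kb from a start and 1.08% of divergent candidates outside the list. The 60 highest divergent candidates of replicate 2 had it at 10 and those of replicate 3 at 9, but both replicates can find the same places, with the same sequence. The 11 pairs were Ugalt/eIF2Bbeta, Tcs5/CHMP2B, Pex11ab/CG8320, mRpL23/CG9004, CG3437/CG3552, Hrd3/PTPMT1, CG4741/Adck1, CG1602/PIG-G, fws/Lamtor3, Gcn5/ver and CG32022/CG6511. Of these only fws/Lamtor3 also held a WGATAR word, against 37.7% of all divergent peaks and 6 of the 15 highest. DRE stood at CG1602/PIG-G and fws/Lamtor3, against 10.3% of all divergent peaks. The 11 were picked by the search, and whether the words go together was not tested.

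AGTGTTG came first among 7-letter words over all divergent peaks, with 60 of 406 (14.8%), against 8.97% of one-direction peaks, 9.00% of divergent candidates outside the list and 5.23% of the midpoints. What binds either word was not tested.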
